A study of Homo sapiens with 12 samples.

Results

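ATF4 and 9 genes that work with it or are switched on by it were followed in U2OS cells, a human osteosarcoma line, treated with 2 small molecules alone and together. They were found by matching their symbols to the deposited table of gene counts, and make up 10 of its 58735 genes. ATF4, ATF5, CEBPB, CEBPG and DDIT3 encode transcription factors. DDIT4, SESN2, TRIB3, PPP1R15A and CHAC1 encode proteins that act on growth signalling, translation and glutathione. All 10 had enough counts to enter the test, which covered 17290 genes.

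The 4 groups each held 3 libraries, taken after 24 h of exposure: both compounds at 10 µM each (the combination), TH10785 alone at 10 µM, PNKP1i alone at 10 µM, or their solvent DMSO. TH10785 is an activator of OGG1, a base excision repair glycosylase for oxidised guanine, and is spelled TH10587 in the series text. PNKP1i is known here by its code name alone. The line has no engineered allele in the labels, and the labels do not say that replicates came from separate cultures, so p-values measure the spread between these libraries, which may be technical.

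ATF4 is the central transcription factor of the integrated stress response. When kinases phosphorylate the translation initiation factor eIF2α, most translation slows while ATF4 mRNA is translated more, through short upstream reading frames. ATF4 is therefore controlled largely at translation, and its mRNA, which is what was counted, need not follow its protein. ATF4 binds composite C/EBP-ATF elements in DNA with partners such as CEBPG and CEBPB, and raises genes of amino acid supply together with DDIT3 (CHOP), TRIB3, CHAC1, SESN2 and DDIT4. DDIT3 in turn raises PPP1R15A (GADD34), which recruits a phosphatase to eIF2α and so closes a feedback loop.

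The promoters that hold the letters of such an element are shown first, since ATF4 and its partners are known to bind them. RefSeq gave 18 windows for the 10 genes (GRCh38.p14, 250 bases before to 50 bases after each start of transcription). The C/EBP-ATF element was searched as TGATGNAA and the cAMP response element as TGACGTCA, on both strands, and the matches of the 2 motifs did not overlap. The C/EBP-ATF letters were in windows of 2 of the 10 genes, CEBPG and CHAC1, against 4.46% of all 27305 genes with a window, and the cAMP response letters in that of PPP1R15A alone, against 2.25% of genes. A match describes the letters and shows no binding. Capitals mark the motif, and each sequence is written on the plus strand, where the CHAC1 match reads as the reverse complement. The first base of the motif lay at -42 (CEBPG), -209 (CHAC1) and -58 (PPP1R15A) from the start of transcription. The CHAC1 match is in an annotated exon and is shown as 30 bases; the other stretches lie outside exons.
CEBPG, chr19:33373896-33374112: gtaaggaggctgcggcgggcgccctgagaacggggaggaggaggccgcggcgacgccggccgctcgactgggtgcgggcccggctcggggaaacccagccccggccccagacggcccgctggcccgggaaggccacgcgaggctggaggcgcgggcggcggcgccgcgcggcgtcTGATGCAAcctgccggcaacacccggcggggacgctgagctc
CHAC1, chr15:40953251-40953280: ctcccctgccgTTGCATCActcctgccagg
PPP1R15A, chr19:48872171-48872391: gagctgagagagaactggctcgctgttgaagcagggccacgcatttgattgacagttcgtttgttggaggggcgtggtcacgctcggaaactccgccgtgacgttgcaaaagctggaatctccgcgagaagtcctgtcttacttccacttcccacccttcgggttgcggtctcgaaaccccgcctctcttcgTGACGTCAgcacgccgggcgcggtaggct

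The libraries held 16225339 to 21546369 counts each. Markers of an osteosarcoma line were expressed in every library except TWIST1, which had 0 counts throughout, as did the leukocyte marker CD3E. The other leukocyte markers had at most 6 (PTPRC) and 14 (CD79A) counts in a library, and the 3 summed to 0.0484 to 0.543 CPM (counts scaled to a common TMM-adjusted library total) with the combination and to 0.321 to 1.10 CPM with DMSO. The 7 osteosarcoma markers summed to 2270 to 2825 CPM in the combination libraries, against 4383 to 5241 CPM in DMSO libraries. Much of this sum was SPARC (760 to 1120 against 1730 to 1930 CPM) and COL1A1 (573 to 793 against 1370 to 1800 CPM). RUNX2, VIM and COL5A1 were also lower, while CDH2 overlapped DMSO (62.4 to 64.7 against 61.8 to 79.1 CPM). The epithelial markers summed to 5.71 to 6.51 CPM with the combination and to 4.85 to 6.05 CPM with DMSO. The endothelial markers summed to 1.69 to 2.99 CPM with the combination and to 4.39 to 4.83 CPM with DMSO. In the combination, mitochondrially encoded genes took 2.51% to 3.19% of counts, against 4.24% to 6.8% with DMSO, and genes under 40% GC stood 0.46 to 0.80 above the DMSO mean on the log2 scale. The part of these differences in the results below was not tested, except for GC content, which is taken up below. In bulk RNA such as this, a change in the share of cells that express a gene and in its level per cell cannot be told apart. Of the 12 libraries, 2 stood apart from their partners. TH10785 replicate 3 had 8.15% of 13087 expressed genes at least 2-fold below its partners, and combination replicate 1 stood high for several genes described here. In TH10785 replicate 3, genes under 40% GC stood at -0.63 from the DMSO mean (log2). It was 1.18 to 1.43 times the mean of its partners for each gene described here except CEBPG (0.734) and DDIT3 (0.799).

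The combination raised 9 of the 10 genes against DMSO, and 0 fell (edgeR quasi-likelihood F test, Benjamini-Hochberg adjusted p under 0.05), where 41.0% of all tested genes were called and 21.3% rose. TH10785 alone raised 0 of 10, against 0.561% of all genes called, although 6 had an unadjusted p under 0.05, as did 14.1% of all genes, and DESeq2 called 1, CHAC1 (adjusted p = 0.0144). PNKP1i alone raised 2 of 10, DDIT4 and CHAC1, against 0.197% of all genes called. The median log2 fold change of the 10 was 1.54 with the combination, 0.40 with TH10785 and 0.46 with PNKP1i, beside medians over all genes of 0.04, -0.02 and -0.02. The 3 comparisons share the DMSO libraries. All 3 treated libraries lay above all 3 DMSO libraries for 9 of the 10 with the combination, against 28.4% of all genes. This held for 6 of the 10 with TH10785 (9.64% of all genes) and 7 with PNKP1i (11.7%). ATF5 lay all below with the combination, where 53.6% of all genes did not overlap in either direction. Leaving out both libraries that stand apart gave 9 called genes for the combination (44.3% of all genes called in that fit), 3 for TH10785 (TRIB3, CHAC1 and PPP1R15A; 3.27% of all genes) and 6 for PNKP1i (ATF4, CEBPB, TRIB3 and PPP1R15A besides DDIT4 and CHAC1; 5.37% of all genes). Without combination replicate 1 alone, 8 rose with the combination (32% of all genes called).

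**Figure D1:**
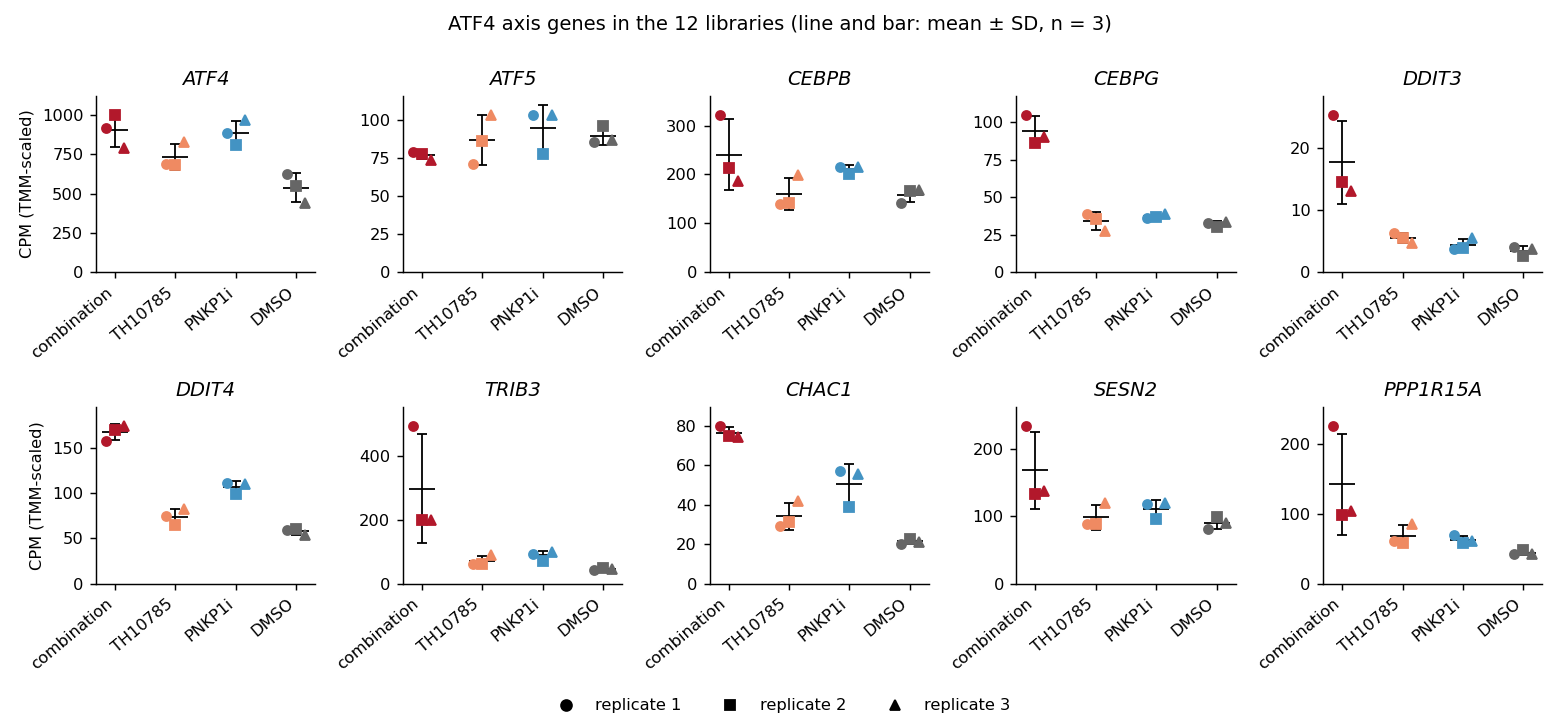
Level of each of the 10 genes in CPM (y axis, from 0) in the 12 libraries, with the group mean and SD as line and bar and the replicate number as the marker shape. CEBPG, DDIT3, DDIT4, TRIB3, CHAC1, SESN2 and PPP1R15A had all 3 combination libraries above all others, and combination replicate 1 stood high for TRIB3, PPP1R15A, DDIT3, SESN2 and CEBPB. Of all tested genes, 28.4% had all 3 combination libraries above those of DMSO, 27.4% above those of TH10785 and 30.3% above those of PNKP1i. The share above all other groups at once was not computed.

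**Figure D2:**
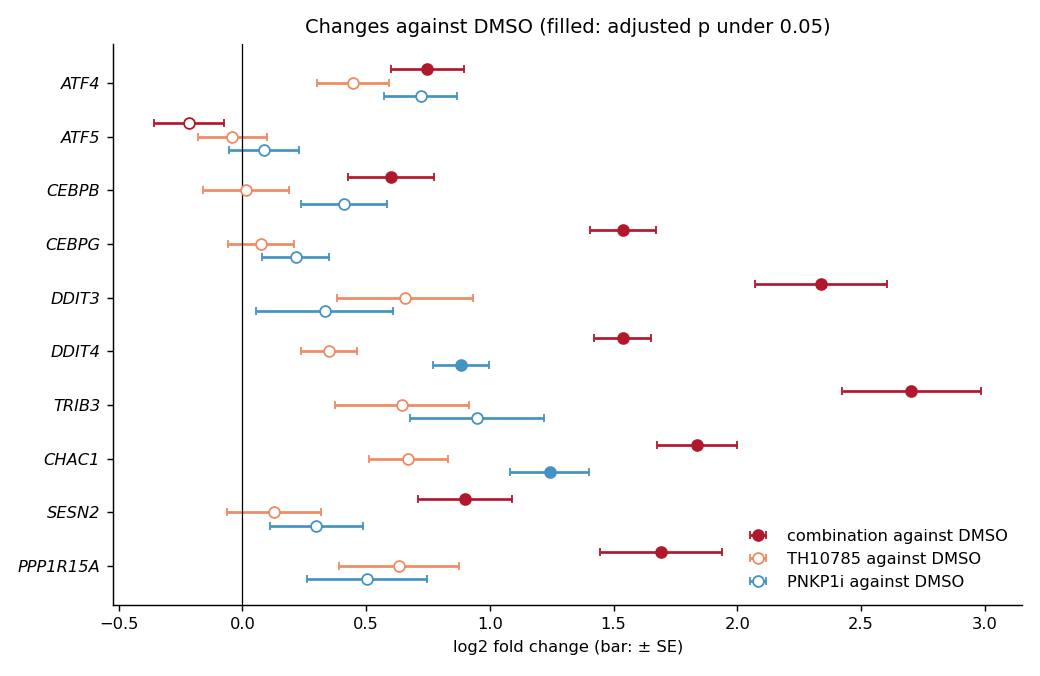
Log2 fold change against DMSO (x axis, bar ± SE) of the 10 genes with the combination, TH10785 and PNKP1i; filled points were called at an adjusted p under 0.05. With the combination 9 genes were called, with PNKP1i DDIT4 and CHAC1, and with TH10785 none of the 10 (0 of 10 by edgeR, 1 by DESeq2).

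Among the transcription factors, ATF4 itself (chromosome 22, 39519695 to 39522685, plus strand, GRCh38 with GENCODE 29) was the most abundant per length, at 359 ± 42.7 CPM per kilobase of exon with the combination and 214 ± 36.8 with DMSO (SD, n = 3 each). Its level was 915, 1003 and 789 CPM with the combination, 686, 682 and 828 CPM with TH10785, 884, 808 and 966 CPM with PNKP1i, and 623, 550 and 439 CPM with DMSO. All libraries of all 3 treated groups lay above all DMSO libraries, and the combination and PNKP1i overlapped. Against DMSO the log2 fold change was 0.75 (SE 0.15, adjusted p = 0.000923 by edgeR) with the combination, 0.45 (SE 0.15, adjusted p = 0.185) with TH10785 and 0.72 (SE 0.15, adjusted p = 0.0585) with PNKP1i. The change with PNKP1i passed the threshold in 10 of 25 alternative fits. The combination and PNKP1i differed by 0.03 (SE 0.15, adjusted p = 0.9). With GC and length offsets this difference was 0.41 (adjusted p = 0.00603), and it was called in 2 of 25 alternative fits. The sum of the single changes was 1.17, against the combination's 0.75, and the interaction was -0.42 (SE 0.21, adjusted p = 0.13); with GC and length offsets the interaction was 0.08.

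CEBPG, a C/EBP factor that pairs with ATF4 (chromosome 19, 33373330 to 33382686, plus strand), was higher with the combination than in each other group. It stood at 105, 86.1 and 90.2 CPM with the combination, 39.2, 35.5 and 27.4 CPM with TH10785, 36.4, 37.1 and 38.9 CPM with PNKP1i, and 32.7, 30.5 and 33.7 CPM with DMSO. Every combination library was above every other library, and the TH10785 libraries overlapped those of DMSO. CEBPG rose 1.54 (log2, SE 0.13, adjusted p = 1.58e-06) with the combination, against 0.08 with TH10785 and 0.22 with PNKP1i, neither of them called. Its interaction of 1.25 (SE 0.19, adjusted p = 0.00245) was called in each of the 24 alternative fits.

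DDIT3, which encodes the death-linked factor CHOP (chromosome 12, 57516588 to 57521737, minus strand), was the least abundant of the 10 per length, at 13.5 ± 5.14 CPM per kilobase of exon with the combination and 2.66 ± 0.613 with DMSO (SD, n = 3 each). It had 25.4, 14.6 and 13.0 CPM with the combination, 6.31, 5.49 and 4.72 CPM with TH10785, 3.78, 3.88 and 5.48 CPM with PNKP1i, and 4.07, 2.56 and 3.80 CPM with DMSO. These levels rest on 288 to 524 counts per library with the combination and 42 to 71 with DMSO. The combination libraries all lay above the rest, and combination replicate 1 was 1.84 times the mean of its partners. DDIT3 rose 2.34 (SE 0.27, adjusted p = 1.22e-05) with the combination, with an interaction of 1.35 (SE 0.38, adjusted p = 0.0151). Without combination replicate 1 the rise was 1.995 (adjusted p = 2.62e-05) and the interaction 0.99 (adjusted p = 0.0387). Exons of DDIT3 share 27.2% of their bases with MARS, a methionyl-tRNA synthetase gene on the other strand. MARS stood at 586 CPM with the combination, 514 with TH10785, 666 with PNKP1i and 448 with DMSO, and rose 0.39 with the combination. Whether reads from the shared bases enter the DDIT3 counts was not tested, and the use of strand in counting is not given.

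CEBPB, another C/EBP factor of stress and inflammation (chromosome 20, 50190734 to 50192689, plus strand), stood at 322, 213 and 186 CPM with the combination, 140, 142 and 198 CPM with TH10785, 216, 201 and 216 CPM with PNKP1i, and 143, 166 and 168 CPM with DMSO. The combination libraries lay above DMSO, but overlapped both single agents. The rise of 0.60 (SE 0.18, adjusted p = 0.0119) with the combination was 0.34 (adjusted p = 0.0788) without combination replicate 1, and was also lost without DMSO replicate 1 (0.53, adjusted p = 0.0536). Against TH10785 it rose 0.59 (adjusted p = 0.0132), which was lost without TH10785 replicate 1 or 2 and without combination replicate 1 (0.32, adjusted p = 0.101). CEBPB exons share 11.8% of their bases with CEBPB-AS1 on the other strand, which had 3.81 CPM with the combination and 1.69 CPM with DMSO. ATF5, a factor also controlled through upstream reading frames (chromosome 19, 49928702 to 49933935, plus strand), was the exception. It had 79.5, 78.0 and 74.1 CPM with the combination, 71.2, 86.5 and 104 CPM with TH10785, 104, 78.1 and 104 CPM with PNKP1i, and 85.9, 96.1 and 87.1 CPM with DMSO. Its 3 combination libraries lay below all 3 DMSO libraries, with a log2 fold change of -0.22 (SE 0.14, adjusted p = 0.229), and with GC and length offsets the value was 0.12 (adjusted p = 0.36). Against PNKP1i the combination gave -0.30 (SE 0.14, adjusted p = 0.0856), called in 4 of 25 alternative fits, and 0.17 with the offsets. ATF5 exons share 21.2% of their bases with NUP62 on the other strand, which fell by 0.46 with the combination.

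DDIT4 and SESN2 both inhibit the growth kinase mTORC1. DDIT4, also called REDD1 (chromosome 10, 72273920 to 72276036, plus strand), was graded across the groups. It had 158, 170 and 174 CPM with the combination, 74.6, 64.1 and 81.9 CPM with TH10785, 111, 98.8 and 109 CPM with PNKP1i, and 58.7, 60.6 and 53.6 CPM with DMSO. DDIT4-AS1, on the other strand of 41.2% of its exon bases, had 0 counts in every library. No 2 groups overlapped, where 14.5% of all genes did not overlap between the single agents. DDIT4 had the smallest SE of the 10 genes with the combination. It rose 1.54 (SE 0.12, adjusted p = 4.51e-07) with the combination and 0.88 (SE 0.11, adjusted p = 0.00241) with PNKP1i, while TH10785 gave 0.35 (adjusted p = 0.183). DDIT4 was also the 1 gene of the 10 that was called between the single agents (0.902% of all genes called), lower with TH10785 than with PNKP1i by -0.53 (adjusted p = 0.0312). It kept this call in 16 of 25 alternative fits. The call was lost without DMSO replicate 2, without any of the 3 PNKP1i libraries and without TH10785 replicate 1 or 2, where the value ran from -0.58 to -0.44. It was also lost with the replicate number as a block (-0.53, adjusted p = 0.0715), with only the groups compared (-0.53, adjusted p = 0.11) and in the test against a fold of 1.2 (adjusted p = 0.304).

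SESN2, a leucine sensor of the same pathway (chromosome 1, 28259527 to 28282491, plus strand), had 235, 133 and 138 CPM with the combination, 88.0, 88.4 and 120 CPM with TH10785, 119, 95.6 and 119 CPM with PNKP1i, and 81.7, 99.3 and 90.4 CPM with DMSO. The 3 combination libraries were highest, with replicate 1 at 1.73 times its partners. SESN2 rose 0.90 (SE 0.19, adjusted p = 0.00151) with the combination, and 0.60 (adjusted p = 0.00684) without that library. The single agents gave 0.13 (TH10785) and 0.30 (PNKP1i), neither of them called. Against PNKP1i it rose 0.60, which was lost without combination replicate 1 (0.29, adjusted p = 0.129) and without PNKP1i replicate 2 (0.50, adjusted p = 0.0718).

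TRIB3, a pseudokinase that binds ATF4 and AKT (chromosome 20, 362835 to 397559, plus strand), had the largest fold change of the 10 in the combination. Its levels were 496, 200 and 199 CPM with the combination, 62.7, 63.1 and 88.7 CPM with TH10785, 93.6, 71.9 and 99.5 CPM with PNKP1i, and 42.3, 49.7 and 45.3 CPM with DMSO. Each treated group lay above DMSO, and combination replicate 1 was 2.49 times the mean of its partners. The rise with the combination was 2.70 (SE 0.28, adjusted p = 5.4e-06), a 6.51-fold change, and 2.13 (adjusted p = 5.04e-07) without that library. TH10785 gave 0.64 (adjusted p = 0.287), or 0.47 (adjusted p = 0.626) without TH10785 replicate 3, and PNKP1i 0.95 (adjusted p = 0.266). Its interaction of 1.11 (SE 0.38, adjusted p = 0.0345) was called in 9 of 24 alternative fits. It was 0.53 (adjusted p = 0.0841) without combination replicate 1. The call was also lost without any DMSO or TH10785 library and without PNKP1i replicate 1 or 2, with values of 0.98 to 1.28.

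PPP1R15A, the stress-induced partner of the eIF2α phosphatase (chromosome 19, 48872392 to 48876057, plus strand), had 226, 97.5 and 104 CPM with the combination, 61.1, 58.3 and 85.5 CPM with TH10785, 69.0, 57.6 and 60.8 CPM with PNKP1i, and 41.7, 48.1 and 42.2 CPM with DMSO. All treated libraries were above all DMSO libraries, and combination replicate 1 was 2.25 times the mean of its partners. It rose 1.69 (SE 0.25, adjusted p = 8.38e-05) with the combination, and 1.204 (adjusted p = 4.95e-05) without that library. Neither single agent was called (0.63 with TH10785, or 0.45 without TH10785 replicate 3, and 0.50 with PNKP1i). Against TH10785 the combination was higher by 1.06 (adjusted p = 0.00275), and by 0.56 (adjusted p = 0.0124) without combination replicate 1. Against PNKP1i it was higher by 1.19 (adjusted p = 0.00105), and by 0.69 (adjusted p = 0.0032) without that combination library. The interaction was 0.55 (adjusted p = 0.223), and 0.05 (adjusted p = 0.888) without it. CHAC1, which breaks down glutathione (chromosome 15, 40952962 to 40956519, plus strand), had the tightest combination libraries of the rising genes, at 79.9, 74.6 and 74.4 CPM, against 29.1, 31.1 and 41.8 CPM with TH10785, 57.2, 38.8 and 55.6 CPM with PNKP1i, and 20.2, 22.7 and 21.2 CPM with DMSO. It rose 1.84 (SE 0.16, adjusted p = 1.58e-06) with the combination and 1.24 (SE 0.16, adjusted p = 0.00241) with PNKP1i. TH10785 gave 0.67 (adjusted p = 0.0746), which passed the threshold in 7 of 25 alternative fits. Without TH10785 replicate 3 this value was 0.51 (adjusted p = 0.101). The CHAC1 change with both compounds was near the sum of its single changes (1.91), with an interaction of -0.08 (SE 0.22, adjusted p = 0.824). With GC and length offsets the CHAC1 interaction turned to 0.53 and was called (adjusted p = 0.0295).

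Against TH10785, 8 of 10 genes rose with the combination (all but ATF4 and ATF5; 42.3% of all genes called), and against PNKP1i 7 of 10 (all but ATF4, ATF5 and CEBPB; 46.0%). The test of whether the combination differed from the sum of the single agents, in either direction, called 3 of 10. These were CEBPG, DDIT3 and TRIB3, all above the sum, beside 30.6% of all genes called and 16.5% called above the sum. The interactions of ATF4 (-0.42), ATF5 (-0.26) and CHAC1 (-0.08) were negative and not called. All 3 turned positive with GC and length offsets (0.08, 0.32 and 0.53), where 7 of the 10 were called, beside 18.1% of all genes. Removing combination replicate 1 left CEBPG and DDIT3 (23% of all genes called).

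**Figure D3:**
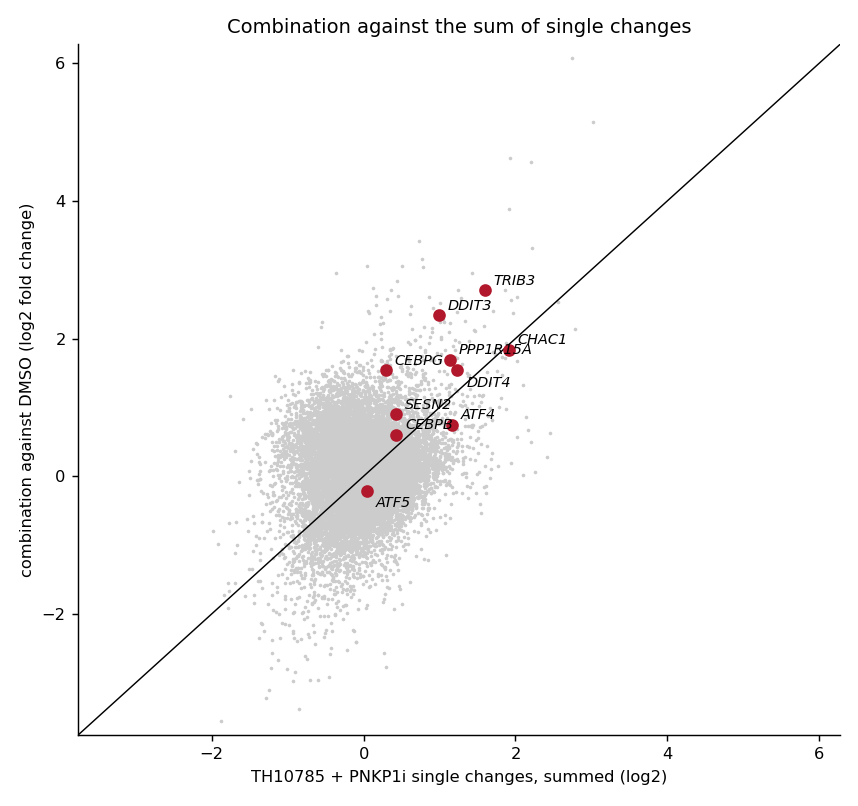
Log2 fold change of the combination against DMSO (y axis) and the summed log2 changes of TH10785 and PNKP1i (x axis) for the 13087 genes whose log2 CPM averaged 1 or more (grey) and the 10 named genes (red); the line marks equality. CEBPG, DDIT3 and TRIB3 lie 1.11 to 1.35 above the line, and the ATF4 interaction is -0.42, which was not called and turned to 0.08 with GC and length offsets.

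The change with the combination followed GC content across all genes, and each gene was set beside tested genes within 2 points of its GC content. The 10 genes run from 43.9% (CEBPG) to 66.2% (CEBPB). The median change of the genes of like GC content was 0.26 at CEBPG and -0.41 at CEBPB. Of the genes with like GC content, 0.214% had a larger rise than TRIB3, 0.511% than PPP1R15A, 0.537% than DDIT3, 0.539% than CHAC1, 0.968% than DDIT4, 3.07% than CEBPG, 3.63% than SESN2, 4.2% than CEBPB and 6.36% than ATF4. For ATF5 it was 42.7%.

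**Figure D4:**
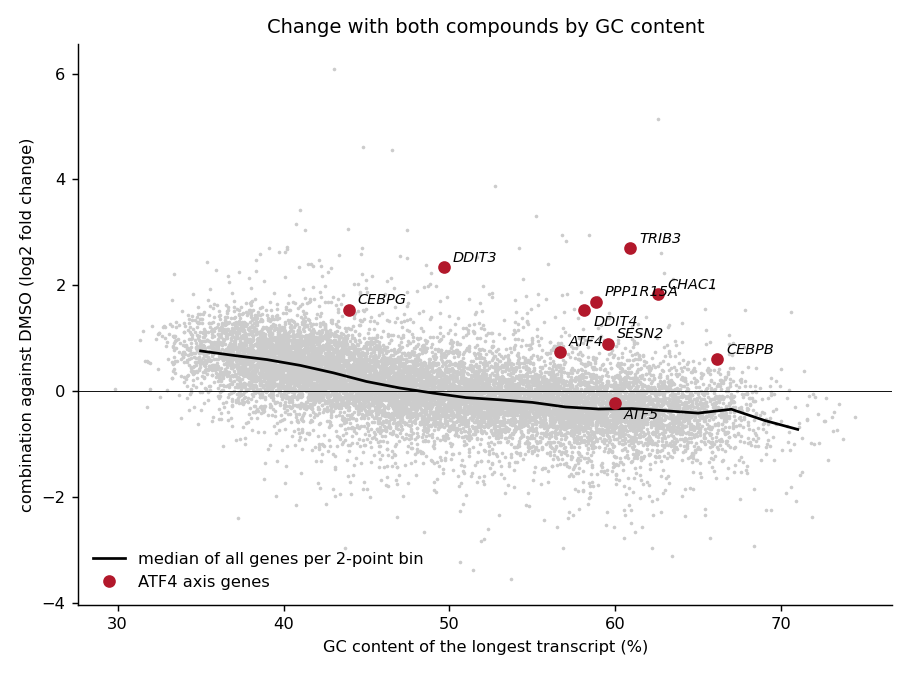
Log2 fold change of the combination against DMSO (y axis) by GC content of the longest transcript (x axis, percent) for those of the same genes with an annotated GC content, with the median per 2-point bin as a line and the 10 named genes in red. ATF5 lies close to the line at its GC content, and the other genes lie above it.

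Paralogs of 5 of the 10 genes were followed too. With the combination, 2 of 6 tested rose and 2 fell, beside 41.0% of all genes called. With GC and length offsets 1 rose and 1 fell, beside 35.1% of all genes called. TRIB1 rose 1.10 (SE 0.22, adjusted p = 0.00114) with the combination and CHAC2, the constitutive relative of CHAC1, rose 0.64 (SE 0.19, adjusted p = 0.0142). The CHAC2 value turned to -0.11 (adjusted p = 0.642) with GC and length offsets, and its call was lost without DMSO replicate 2 (adjusted p = 0.0598) or combination replicate 2 (adjusted p = 0.0504). TRIB2 fell by 0.87 (SE 0.22, adjusted p = 0.00547), a call lost with the offsets (-0.67, adjusted p = 0.0796). SESN3 fell by 0.92 (SE 0.27, adjusted p = 0.0122), a call lost without combination replicate 1 (-0.63, adjusted p = 0.0616). PPP1R15B, the constitutive partner of the phosphatase, had 0.25 (SE 0.14, adjusted p = 0.151), a value called (0.26, adjusted p = 0.0339) without TH10785 replicate 3. SESN1 had 0.03 (SE 0.21, adjusted p = 0.931), and -0.20 with the offsets. DDIT4L had 0 counts in every library.

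**Figure D5:**
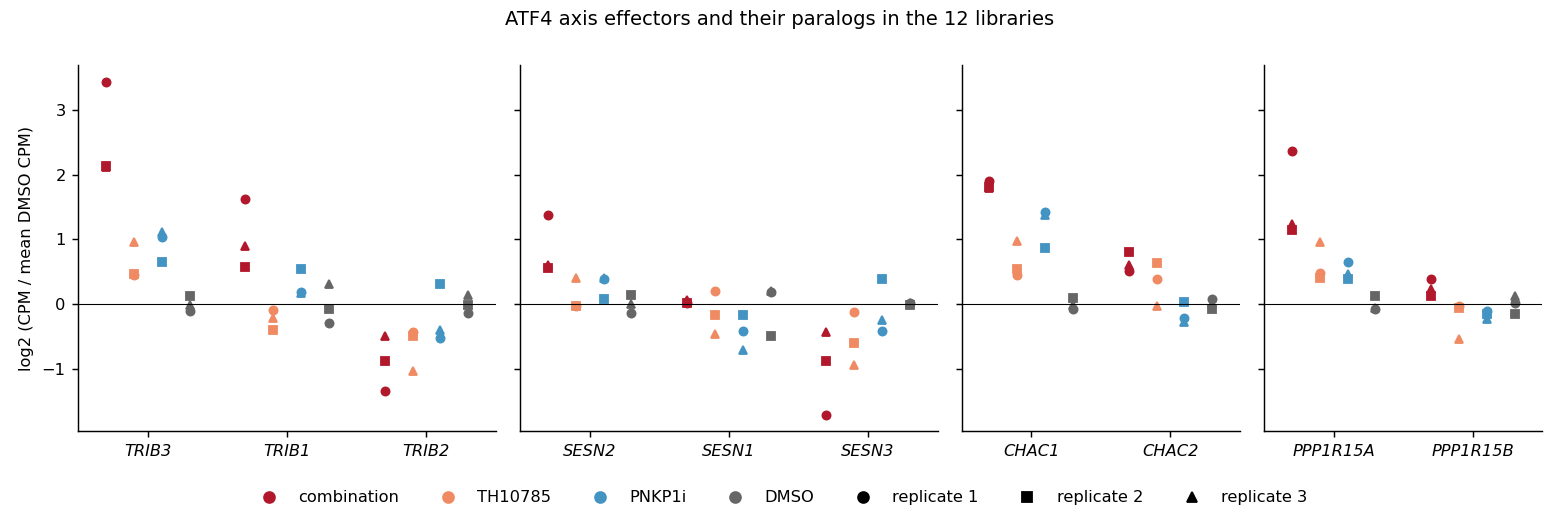
Log2 of CPM over the DMSO mean (y axis) for TRIB3, SESN2, CHAC1 and PPP1R15A beside their paralogs, in the 12 libraries; colour gives the group and marker shape the replicate. With the combination, TRIB3, SESN2, CHAC1 and PPP1R15A rose, as did TRIB1 and CHAC2 (CHAC2 turned to -0.11 with GC and length offsets), TRIB2 and SESN3 fell, and SESN1 and PPP1R15B were not called.

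Known targets of ATF4 outside the 10 were listed with earlier results of these data known. With the combination 26 of 31 tested rose and 0 fell (median 0.85, against 0.04 for all genes), with PNKP1i 8 rose (median 0.66) and with TH10785 0 rose (median 0.27). Over all tested genes 21.3% rose with the combination, 0.174% with PNKP1i and 0.515% with TH10785. ASNS, the asparagine synthetase, had 22.7 CPM with the combination and 3.84 CPM with DMSO, a rise of 2.56 (adjusted p = 1.07e-06). SLC7A11, the cystine importer, rose 2.45 (adjusted p = 1.9e-06), and PSAT1, of serine synthesis, rose 1.48 (adjusted p = 5.62e-07). ASNS and PSAT1 were also called with PNKP1i (1.49 and 0.82), the ASNS call being lost without DMSO replicate 3 (1.40, adjusted p = 0.0667). SLC7A11 was not called with PNKP1i (0.79, adjusted p = 0.225), and was called in 7 of 25 alternative fits, among them those without TH10785 replicate 3 (0.80, adjusted p = 0.0277) and with the offsets (1.01, adjusted p = 0.00249). With GC and length offsets 28 of the 31 rose with the combination (35.1% of all genes called), and without combination replicate 1, 23 (32% called).

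Of genes of the input to ATF4, the eIF2 kinases, eIF2 and eIF2B, 7 of 20 rose and 2 fell with the combination. Of all tested genes, 41.0% were called there and 21.3% rose. With GC and length offsets 3 of the 20 rose and 2 fell, where 35.1% of all genes were called. EIF2S2, a subunit of eIF2, rose 1.17 (adjusted p = 6.69e-05), and IMPACT, an inhibitor of the kinase GCN2, rose 0.87 (adjusted p = 0.0053), a call lost with the offsets (0.31, adjusted p = 0.194). PPP1CA, a catalytic subunit of the eIF2α phosphatase, fell by 0.59 (adjusted p = 0.00518). The ATF6 and XBP1 arms of the unfolded protein response had 9 of 19 genes higher and 5 lower (41.0% of all genes called). With GC and length offsets 4 were higher and 5 lower (35.1% called). XBP1 rose 0.95 (adjusted p = 0.000222), a call lost with the offsets (0.50, adjusted p = 0.0637), while the chaperone-linked genes MANF and CALR fell by 0.82 and 0.81 (adjusted p = 6.61e-05 and 0.000145). MANF was also lower with PNKP1i (-0.71, adjusted p = 0.0128). That call was lost without DMSO replicate 1 or 2 and without any of the 3 PNKP1i libraries, with values of -0.73 to -0.66, and in the test against a fold of 1.2 (adjusted p = 0.11).

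Of genes linked to CHOP in cell death and oxidation, 5 of 7 rose and 1 fell, beside 41.0% of all genes called and 21.3% that rose. PMAIP1 (NOXA) rose 1.55 (adjusted p = 2.86e-05) and ERO1A rose 0.75 (adjusted p = 0.000823), while BCL2L11 (BIM) fell by 1.03 (adjusted p = 1.98e-05). The 5 that rose include BCL2 (0.79, adjusted p = 0.00634), which opposes cell death, so the count mixes genes of opposite action. Of 13 other inhibitors of mTORC1, 0 rose and 5 fell (41.0% of all genes called). With GC and length offsets 1 rose and 3 fell (35.1% called). CASTOR2 fell by 1.35 (adjusted p = 0.000119), AKT1S1 by 0.64 (adjusted p = 0.00394) and NPRL3 by 0.61 (adjusted p = 0.00533). With the offsets the calls of AKT1S1 (-0.22, adjusted p = 0.106) and NPRL3 (-0.17, adjusted p = 0.291) were lost. Among 26 other bZIP factors 11 rose and 6 fell, beside the same 41.0% of all genes called and 21.3% that rose. DBP and TEF, clock-linked factors, fell by 2.23 and 1.38 (adjusted p = 1.39e-06 and 5.15e-06), and MAFF rose 1.40 (adjusted p = 0.000124).

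The genes whose pattern over the 12 libraries was nearest to the mean pattern of the 10 were taken by root mean square difference in log2 CPM, among 12439 candidates. They were WARS1 (0.104), VEGFA (0.116), MOCOS (0.119) and CSF2RA (0.12). Each of the 10 lay farther from that mean itself, from 0.252 (DDIT4) to 0.844 (ATF5), so the mean is not the pattern of any 1 of them. WARS1 and VEGFA are among the listed targets of ATF4. The mean of the 10 stood at 1.67, 1.18 and 1.13 above DMSO in the combination libraries, 0.27, 0.25 and 0.52 with TH10785, and 0.61, 0.39 and 0.68 with PNKP1i.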

How the data were processed

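RNA from U2OS cells was sequenced in 12 libraries (TRIzol extraction, NEBNext Ultra kit, NovaSeq, per the labels' protocols). Per the submitters' processing notes, the tools were HISAT2 2.0.5, HTSeq 0.6.1 and DESeq2 1.30.1. The annotation counted and the use of strand are not given in the sources used here. The authors deposited raw read counts for 58735 genes and a normalized signal for 35754 genes. The test on raw counts was that of edgeR 4.0.16 under R 4.3.3 (filterByExpr, minimum count 10, minimum total 15; TMM; robust quasi-likelihood F test, two-sided; all 4 groups in 1 fit), with p-values adjusted by Benjamini-Hochberg over 17290 genes. CPM here is a count scaled to a common TMM-adjusted library total. The biological coefficient of variation was 15.4%. The members and lists were chosen with earlier results of these data known. Named genes are the 10, the 3 smallest-p genes called per list, every paralog and the 4 nearest in pattern. MARS, NUP62, CEBPB-AS1 and DDIT4-AS1 were named for shared exons, and BCL2 because it opposes cell death. Alternatives were RLE, upper-quartile scaling, DESeq2 1.42.0, limma-voom and limma-trend (limma 3.58.1, normalized signal plus 1, log2), other filters, a fold of 1.2, a replicate block, GC and length offsets, the groups compared alone and each library left out. Leaving out both libraries that stand apart was added after seeing the data. Fits were tested on simulated data. Coordinates are GENCODE 29 on GRCh38. Promoters are RefSeq's.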

Additional observations from a re-analysis of the deposited data

Results flagged for a closer look

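For 3 of the 10 genes the effect of both compounds differed from the summed single effects by the test of that difference itself. The interaction was 1.25 for CEBPG, 1.35 for DDIT3 and 1.11 for TRIB3 on the log2 scale. The same test called 30.6% of all tested genes, so 3 of 10 is not a larger share than over all genes. All 3 lay above the sum, where 16.5% of all genes were called. Whether the 10 genes differ from all genes in this share was not tested. The CEBPG and DDIT3 values kept their call in each alternative fit run, and that of TRIB3 in 9 of 24.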

How the results depend on the processing

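The 10 genes gave 1740 recomputed values, of which 1618 kept their direction and side of the threshold. The number of genes called with the combination against DMSO was 9 in each alternative other than the library left out, where it ran from 8 to 9. Over all alternatives, 4944 to 8468 of all genes were called in that comparison. Against TH10785 the 8 calls ran from 7 to 9 with each library left out. They were 10 with GC and length offsets (33.8% of all genes called), 9 with the block too and 7 with only the groups compared (30.6%). Against PNKP1i the 7 calls ran from 6 to 8, and were 9 with the offsets (33.8% of all genes called), with or without the block. They were 8 with only the groups compared (50.3%) or without both libraries that stand apart (47.9%). The added call there was a fall of ATF5 (-0.295, adjusted p = 0.0495, and -0.324, adjusted p = 0.0288). ATF5 was also called lower without TH10785 replicate 3 (-0.305, adjusted p = 0.0291). For TH10785 against DMSO the 0 calls became 1 in DESeq2 (1.82% of all genes called), 2 unfiltered and 1 under GC and length offsets (1.66%). They were 1 when the block joined those offsets and 3 without both libraries that stand apart (3.27%). With each library left out they ran from 0 to 2 (2 without combination replicate 1, where 1.01% of all genes were called). For PNKP1i the 2 calls became 6 with only the groups compared (7.07% of all genes called) and 6 without both libraries (5.37%). They were 3 in DESeq2 (0.671%), limma-voom, the unfiltered fit and both fits with offsets (0.596% without the block). With each library left out they ran from 2 to 4 (4 without combination replicate 1, where 0.379% of all genes were called). Between TH10785 and PNKP1i the 1 call became 2 unfiltered, 0 in the test against a fold of 1.2 and 0 under the replicate block (0.602% of all genes called). It became 2 with GC and length offsets (1.58%) and 2 with both. With only the groups compared it was 0 (0.671%), and 4 without both libraries (7.83%). With each library left out it ran from 0 to 2. The interaction's 3 calls became 7 with GC and length offsets (18.1% of all genes called) and 8 with the replicate block too. They were 4 without both libraries (23.7%). In DESeq2 (33.5%), limma-voom, limma-trend, the unfiltered fit and the test against a fold of 1.2 they were 2. With each library left out they ran from 2 to 3. The labels do not say whether equal replicate numbers pair the libraries. In departures from the group means, 4 of 18 same-number pairs correlated above 0.1, and 2 of 12 libraries correlated best with their own number. With 3 libraries in a group these correlations cannot settle whether the libraries were paired.

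Of the values of the 10 genes, 35 changed sign. With GC and length offsets ATF5 was -0.055 with PNKP1i, 0.12 with the combination, 0.26 against TH10785, 0.17 against PNKP1i and 0.32 in the interaction, CEBPB was -0.035 with TH10785, ATF4 0.075 and CHAC1 0.53 in the interaction. With the block added these were -0.057, 0.12, 0.26, 0.17 and 0.32 for ATF5, -0.039 for CEBPB, 0.064 for ATF4 and 0.53 for CHAC1. Limma-voom gave CEBPB -0.001 with TH10785. Without both libraries CEBPB was -0.17 with TH10785 and -0.078 in the combination against PNKP1i, SESN2 was -0.035 with TH10785, PPP1R15A -0.064 between single agents and CHAC1 0.065 in the interaction. With each library left out CEBPB with TH10785 ran from -0.15 to 0.13, ATF5 from -0.17 to 0.11, CEBPG from -0.012 to 0.22 and SESN2 from -0.023 to 0.23. ATF4 in the combination against PNKP1i ran from -0.055 to 0.12 and CEBPB from -0.074 to 0.35. Between single agents ATF5 ran from -0.28 to 0.01 and PPP1R15A from -0.068 to 0.23. In the interaction CHAC1 ran from -0.24 to 0.084 and CEBPB from -0.10 to 0.34. Among paralogs, with the combination, CHAC2 was -0.105 with the offsets and -0.113 with the block too. SESN1 was -0.195 and -0.186 there and -0.010 with only the groups compared, and ran from -0.169 to 0.140 with each library left out. The cause of these changes was not tested. Counts of called genes over the whole table ran from 44 to 576 for TH10785, 7 to 1150 for PNKP1i, 68 to 1378 between them and 2410 to 6140 for the interaction, beside 97, 34, 156 and 5289.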
